A study of Mus musculus with 10 samples.

Results

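Peaks of N6-methyladenosine (m6A) were examined on the transcripts of 10 genes: the immediate early transcription factor genes Egr1, Egr3, Fos, Fosb, Jun, Junb and Jund, the synaptic immediate early gene Arc, and the Myc family genes Myc and Mycn. The genes were taken by symbol from the gene name of each entry in 2 deposited peak lists. Of the 10 genes, 9 appeared there, among 8516 genes named in either list, and Fosb appeared in neither. The tissue was mouse cortex and hippocampus at postnatal day 5. Wild-type animals (WT) gave 3 m6A IP and 3 input libraries, and animals labelled Mettl14 KO gave 2 IP and 2 input libraries. In the IP libraries an anti-m6A antibody selected RNA before sequencing, and a peak is a stretch of transcript that the authors list as enriched. The knockout was driven by Nestin-Cre, which acts in neural stem and progenitor cells, so microglia, vessels and other cells outside that lineage are not targeted by it. Medium and incubator conditions are also listed in the labels, and whether cells were cultured before RNA extraction is not settled by them. Each genotype has 1 consensus list made from all its libraries, so there is no replicate error, no test between the genotypes and no expression level. A peak that is not listed in a genotype therefore cannot be told apart from a transcript too scarce to give one.

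Immediate early genes are transcribed within minutes of a stimulus without new protein synthesis, and in neurons synaptic activity is a main trigger. Their mRNAs are short-lived, which makes the response brief. EGR proteins are zinc finger factors, FOS and JUN proteins pair through leucine zippers to form the AP-1 factor, and Arc acts at synapses, where it promotes the removal of AMPA-type glutamate receptors. Myc and Mycn encode growth-promoting factors that bind DNA with the partner Max, and Mycn is the main form in neural progenitors. METTL14 and METTL3 together form the core of the nuclear complex that places m6A on mRNA, a mark linked to faster mRNA decay through YTH readers and, for the MYC transcript, to stabilising IGF2BP readers.

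The WT list held 15009 peaks and the KO list 3673 after overlapping entries were merged. Mettl14 itself had 1 WT peak of 180 exonic bases and no KO peak. Among neuron markers, 7 of 10 genes had a WT peak. Elavl4, Snap25 and Dcx had no peak in either list. Of the markers of other cells, 8 of 8 astrocyte, 6 of 8 oligodendrocyte lineage, 5 of 9 microglia, 8 of 9 vessel and 0 of 3 blood genes had a WT peak. Among marker genes with a WT peak, a KO peak lay over one in 7 of 7 neuron and 3 of 8 astrocyte genes. The same held for 0 of 6 oligodendrocyte lineage, 2 of 5 microglia and 2 of 8 vessel genes, beside 20.6% of all genes with a WT peak. Over all genes this share rises with the number of WT peaks, from 10.5% with 1 peak to 33.8% with 3. The median number was 3 in these neuron, 2 in astrocyte, 2.5 in oligodendrocyte lineage, 2 in microglia and 1 in vessel genes. Which cells gave the KO peaks was not tested. Presence of a peak is no measure of how many such cells a sample held.

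The 9 genes carried 19 WT peaks over 7271 exonic bases and 4 KO peaks over 779 bases, which is 10.7% of the WT length, against 16.6% over all genes. The share over all genes also counts KO peaks in genes without a WT peak and peaks of several exonic blocks. A WT peak is called retained here where it shared 1 or more exonic bases with a KO peak of the same strand, and lost otherwise. Retained peaks were found in Egr1, Jun and Jund, 1 in each, and the other 16 peaks were lost. Thus 3 of 19 WT peaks were retained (15.8%, Wilson 95% interval 5.52 to 37.6), beside 12.9% of all WT peaks, and 3 of 9 genes had a retained peak (33.3%, interval 12.1 to 64.6), beside 20.6% of all genes with a WT peak. The shares over all genes fall inside both intervals, which are too wide to tell whether these genes differ from all genes. All 19 peaks lay on a single exonic block, and of single-block WT peaks in all genes 7.97% were retained, also inside the interval. Each of the 4 KO peaks lay over a WT peak, beside 57.1% of KO peaks in all genes. Intervals cover counting error only, and those for peaks treat each peak as independent although several share a gene. The depth of the libraries is unknown.

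**Figure D1:**
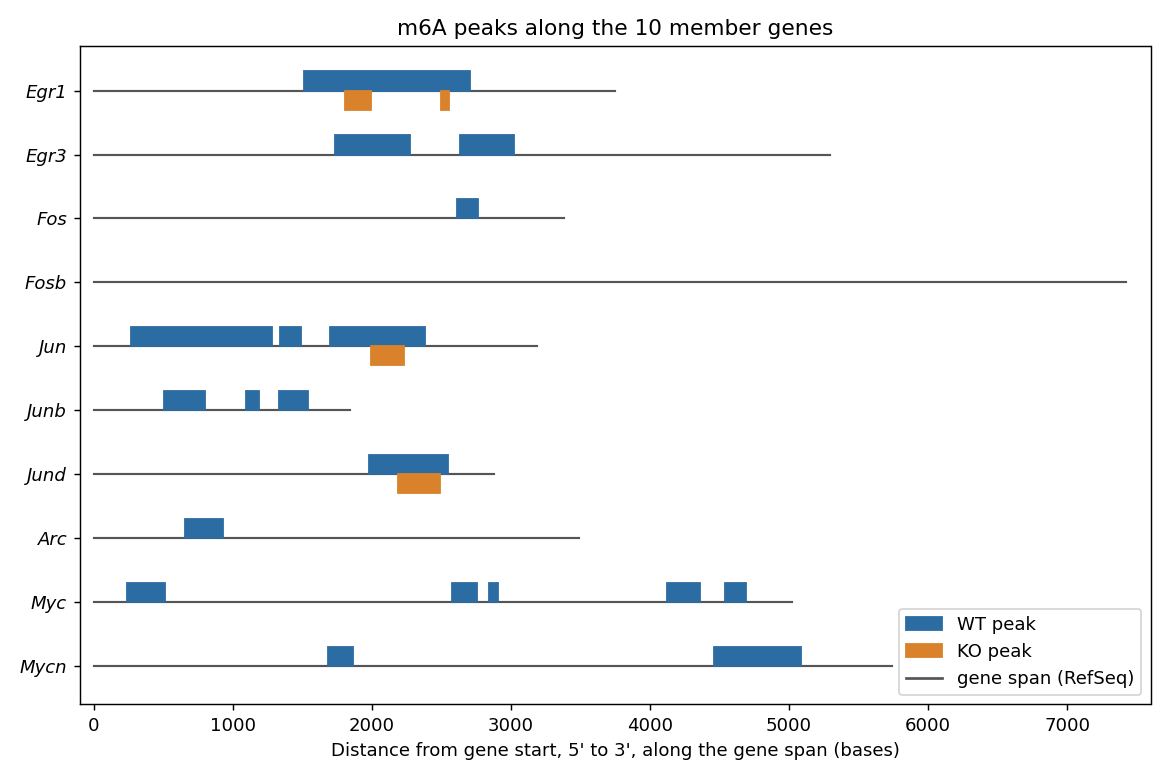
WT peaks (blue, above the line) and KO peaks (orange, below it) along the span of each gene (grey line), as distance from the gene start in bases. KO peaks are drawn for Egr1 (2), Jun (1) and Jund (1), each under a WT peak, and Fosb has no peak in either list.

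Egr1 encodes a zinc finger factor, also known as Zif268, that is widely used as a marker of recent neuronal activity. The gene spans 34861207 to 34864956 on the plus strand of chromosome 18 (mouse build GRCm38, counted from 1, as for all positions here). Its only WT peak ran from 34862720 to 34863912. At 1193 exonic bases it was the widest of the 19, it covered 31.8% of the gene span, and only 0.793% of WT peaks were as wide or wider. Its deposited score, which was taken for a p-value or q-value of the peak, was 1e-106, which placed it within the strongest 22.9% of the WT list. In the KO list 2 separate peaks lay in this region, of 180 bases (34863018 to 34863197, score 1e-22) and 60 bases (34863704 to 34863763, score 6.2e-09). Together they covered 20.1% of the WT peak. The first lay 298 bases inside the 5′ border of the WT peak and the second 149 bases inside its 3′ border. Of all retained WT peaks, 7.92% (153) were overlapped by 2 or more KO peaks.

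Egr3 encodes a related factor that is itself induced by activity and is needed for muscle spindle development. The gene lies on chromosome 14 from 70077317 to 70082613, plus strand. It had 2 WT peaks, of 540 bases (70079049 to 70079588, score 1.3e-71) and 390 bases (70079948 to 70080337, score 1.6e-31), set 359 bases apart. Neither was retained and the gene had no KO peak. The first Egr3 peak fell in the same class as the Egr1 peak when the WT list was divided into 5 classes of about equal size by score and likewise by width. Of all single-block WT peaks in that class of score and width, 13.9% were retained (80 of 577, interval 11.3 to 16.9). The other Egr genes, named after their values were seen, had WT peaks that were all lost, 2 in Egr2 and 1 in Egr4, and Egr2 had 1 KO peak elsewhere in the gene.

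Jun encodes c-Jun, a core AP-1 subunit, and had the longest peak cover of the 10 genes. The gene lies on chromosome 4 from 95049036 to 95052222, minus strand. Its 3 WT peaks summed to 1849 exonic bases, 58.0% of the gene span, and only 2.66% of genes with a WT peak had as much or more. In the direction of transcription, the first peak (95050942 to 95051954) measured 1013 bases with a score of 4e-62. The second (95050733 to 95050882) measured 150 bases with a score of 1.3e-12. The third (95049840 to 95050525) measured 686 bases, and its score is listed as 0, too small to be held, as for 764 WT peaks. Gaps of only 59 and 207 bases separated them, between 268 bases after the start of the gene and 804 bases before its end.

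The third Jun peak alone was retained. The KO peak there ran from 95049989 to 95050227, measured 239 bases and had a score of 4e-19. It covered 34.8% of the WT peak, and its centre was 74.5 bases from that of the WT peak. The first Jun peak was wider than the retained one but ranked lower by score, at 38.0% from the top of the list against 5.09%. In all genes with 3 WT peaks of which 1 was retained and 1 was strongest by score, the strongest was the retained one in 134 of 247 (54.3%), as in Jun. The antisense long noncoding RNA gene Junos starts 95 bases beyond the start of Jun and does not overlap it. No other RefSeq gene overlaps the span of any of the 10 genes.

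Jund encodes JunD, the AP-1 subunit that is expressed most steadily and least dependent on stimulation. The gene lies on chromosome 8 from 70697739 to 70700616, plus strand. Its single WT peak, from 70699717 to 70700286, measured 570 bases with a score of 1e-191, within the strongest 11.3% of the list. The KO peak lay wholly inside it, from 70699927 to 70700226, and measured 300 bases with a score of 2e-21. It covered 52.6% of the WT peak, the largest cover among the 3 retained peaks of these genes. Jund was also the only one of the 10 genes that kept a retained peak when at least 50% of the WT peak had to be covered.

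Junb encodes JunB, an AP-1 subunit that often opposes c-Jun on shared targets. It had 3 WT peaks like Jun, over 596 exonic bases against 1849, and none was retained. The gene, on chromosome 8 from 84976909 to 84978748 (minus strand), is the shortest of the 10 and had 1.63 WT peaks per kb of span. The peaks measured 298 bases (84977947 to 84978244, score 1.6e-41), 90 bases (84977562 to 84977651, score 5e-09) and 208 bases (84977206 to 84977413, score 2.5e-17) in the direction of transcription. All 3 were in the weaker part of the WT list, the first of them at 50.2% from the top.

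Fos, which encodes c-Fos, had 1 WT peak of 150 bases on chromosome 12 (85476502 to 85476651, plus strand, in a gene from 85473890 to 85477274). Its score of 1.7e-07 put it at 96.9% from the top of the WT list. It was lost. Of single-block WT peaks in the same classes of score and width, 4.28% were retained (33 of 771, interval 3.06 to 5.95). Fosb, the source of the long-lived variant ΔFosB, spans 19302696 to 19310118 on chromosome 7 and had no listed peak. The related genes Fosl2 and Fosl1, named after their values were seen, had 3 and 1 WT peaks, all lost.

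Arc had 1 WT peak of 270 bases, on chromosome 15 from 74671641 to 74671910, minus strand, in a gene from 74669081 to 74672570. Its score of 2.5e-07 was the weakest of the 19, at 97.2% from the top of the list. The peak began 660 bases after the gene start, and its midpoint lay at 22.8% of the span. It was lost, and of the 84 single-block WT peaks in the same classes of score and width 4 were retained (4.76%, interval 1.87 to 11.6).

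Myc had the most WT peaks of the 10 genes and no KO peak. The gene lies on chromosome 15 from 61985341 to 61990361, plus strand, and only 5.30% of genes with a WT peak (409) had 5 peaks or more. The 5 peaks fell into 3 places along the gene. The first, of 271 bases (61985581 to 61985851, score 1e-34), lay 240 bases from the gene start. After a gap of 2063 bases came peaks of 181 bases (61987915 to 61988095, score 5e-34) and 61 bases (61988185 to 61988245, score 2.5e-16), 89 bases apart. After a further gap of 1216 bases came peaks of 241 bases (61989462 to 61989702, score 1e-148) and 151 bases (61989881 to 61990031, score 1e-226), 178 bases apart. Gaps count genomic bases and may hold introns.

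The strongest Myc peaks by score were the last 2, both with a midpoint under 1000 bases from the gene end. They stood within the strongest 15.6% and 8.83% of the WT list. Both were lost. The last Myc peak was stronger than the retained Jund peak but 151 bases wide against 570. Among all single-block WT peaks as strong and as wide, by these classes, 13.6% were retained for the fourth peak (83 of 611, interval 11.1 to 16.5) and 4.11% for the last (6 of 146, interval 1.90 to 8.68). Of all 226 genes with 5 WT peaks, 43.4% (98, interval 37.1 to 49.9) had no KO peak, like Myc.

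Mycn had 2 WT peaks and lost both. The gene lies on chromosome 12 from 12936093 to 12941836, minus strand. The first, of 180 bases (12939971 to 12940150), had a score of 1.3e-11. The second, of 628 bases (12936749 to 12937376), had a score of 1e-175, within the strongest 12.9% of the list, and its midpoint lay 970 bases from the gene end. It was close in score and width to the retained Jund peak. The third Jun peak, the Jund peak and the second Mycn peak fell in the same classes of score and width, in which 27.5% of single-block WT peaks were retained (281 of 1023, interval 24.8 to 30.3). Mycl, the third Myc gene, had 4 WT peaks over 1791 bases, none retained.

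**Figure D2:**
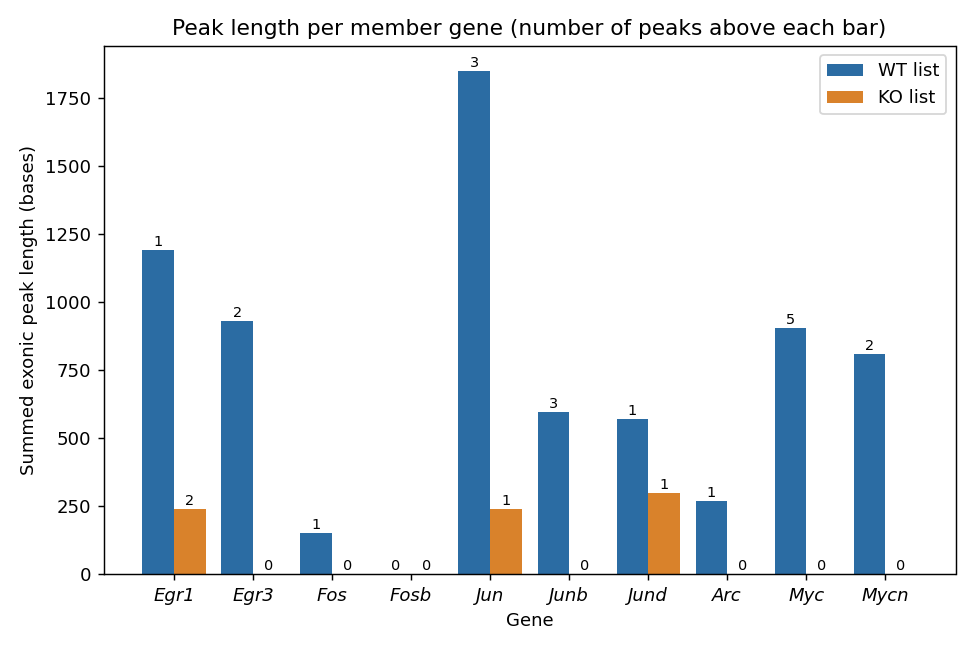
Summed exonic peak length per gene in bases, in the WT list (blue) and the KO list (orange), with the number of peaks above each bar. Jun is highest in WT with 1849 bases, and KO length is above 0 in Egr1 (240), Jun (239) and Jund (300) alone.

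Peaks differed widely among the 10 genes in strength and width. The 19 WT peaks measured 61 to 1193 bases with a median of 270 bases, against 208 in all genes and 181 in single-block peaks of all genes. By the 5 classes of score, strongest first, 5, 3, 4, 2 and 5 of them fell in each class, so they were spread over the whole list. Of these, 2, 1, 0, 0 and 0 were retained. Over all genes 31.0%, 14.0%, 9.49%, 6.43% and 3.54% were retained in the same classes, and 18.8%, 8.43%, 5.85%, 4.84% and 3.11% of single-block peaks. All 3 retained peaks were also in the widest class, from 360 bases, which held 7 of the 19. Over all genes, 30.7% of WT peaks in that class were retained, falling to 2.67% in the narrowest class. These 2 shares include peaks of several exonic blocks. Single-block peaks of the widest class were retained at 27.5%, 13.9% and 8.79% in score classes 1, 2 and 3, which held all 7. The lost peaks of the widest class were both Egr3 peaks, the first Jun peak and the second Mycn peak.

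**Figure D3:**
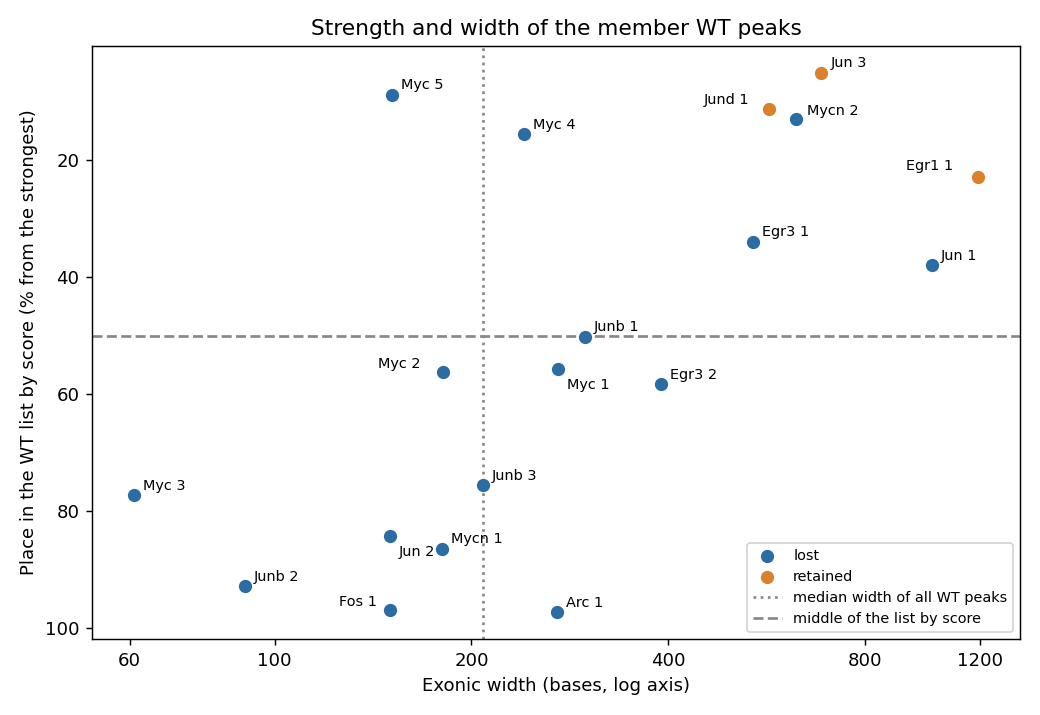
Each of the 19 WT peaks by exonic width (log axis, bases) and by its place in the WT list by score (0% is the strongest), numbered along the gene in the direction of transcription; retained peaks are orange and lost peaks blue. The 3 retained peaks (570 to 1193 bases) lie at the upper right together with the lost second Mycn peak. The first Jun peak (1013 bases, 38.0%) and the first Egr3 peak (540 bases, 34.0%), both lost, lie at the right somewhat below them. The lost peaks 4 (241 bases) and 5 (151 bases) of Myc are at the top, to the left of the retained peaks.

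KO peaks covered only a part of the WT peaks they lay on. The cover was 20.1% in Egr1, 34.8% in Jun and 52.6% in Jund. Over all retained single-block WT peaks the median cover was 50% (quartiles 26.8 and 75.1, 915 peaks), and over the 255 of them at least 500 bases wide, a limit set after seeing the data, it was 25.8% (16.5 and 36.6). Against this second range Egr1 and Jun lie between the quartiles and Jund above them. In the KO list, the Egr1 peak of 180 bases, the Jund peak and the Jun peak stood at 31.7%, 34.2% and 39.5% from the top by score, and the Egr1 peak of 60 bases at 86.7%.

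**Figure D4:**
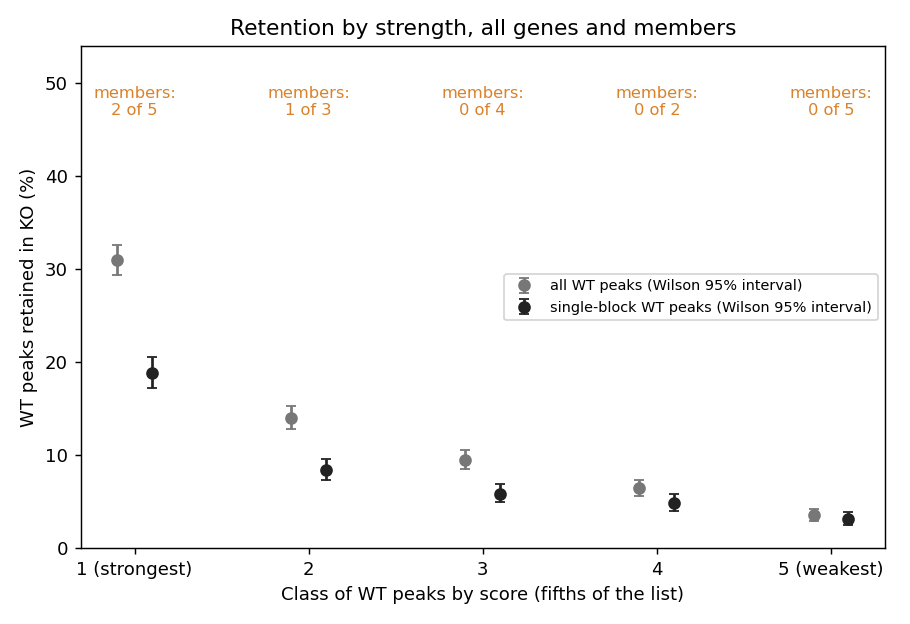
Percentage of WT peaks retained in KO, in 5 classes of the WT list by score, for all WT peaks (grey) and single-block WT peaks (black) of all genes, with Wilson 95% intervals as bars. Orange text gives the retained peaks of the 10 genes in each class, 2 of 5 and 1 of 3 in the first and second classes and none of 4, 2 and 5 in the others.

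Of the 19 WT peaks, 7 had a midpoint no more than 1000 bases from the gene end (36.8%), beside 16.5% of all WT peaks, in Fos, Junb (2), Jund, Myc (2) and Mycn. The 10 genes are short, between 1840 and 7423 bases long, and 1000 bases are a large part of such spans. Of the 7 peaks, the Jund peak alone was retained. No part of a peak reached the first 240 bases of any of the genes, the nearest being the first Myc peak. Transcript parts such as coding sequence or untranslated regions were not analysed here.

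Genes with the same number of WT peaks, retained peaks and KO peaks were sought for each of the 9 genes, nearest first by summed WT length over both lists. The Egr1 counts of 1 WT peak, which was retained, and 2 KO peaks were shared by 50 genes. Nearest to the 1193 bases of Egr1 were Sdc3 (1229 bases), Chga (1135) and Htatsf1 (1131). Whether both KO peaks lay over the WT peak was not part of this match. The Jun pattern was shared by 201 genes, with Lrfn1 (1797), Gnaz (1733) and Tesk1 (1649) nearest to 1849. The Myc pattern was shared by 97 genes, with Pdzd8 (904), Brpf1 (902) and Scn1a (902) nearest to 905. The Jund pattern was shared by 348 genes, nearest Nudc (569), Ddrgk1 (566) and Paf1 (563). The patterns of the rest were common: 569 other genes had 3 lost peaks and no KO peak like Junb. The same with 2 lost peaks held for 1407 genes beside Egr3, Mycn being among them, and with 1 for 3236 genes beside Fos, Arc being among them.

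Other genes of the same pathways were counted from 6 lists. Of 25 other immediate early regulators, 20 had a WT peak, among which 4 kept a retained peak (20.0%). They included Gadd45g and Ier5, each with 1 WT peak over which 1 KO peak lay. The nuclear receptor gene Nr4a3 lost 4 peaks and the Krüppel-like factor gene Klf9 lost 3. Of 28 effector genes induced by activity, 22 had a WT peak and 5 a retained one (22.7%). Vgf, which encodes a secreted neuropeptide precursor, retained 2 of 3 peaks and the activin subunit gene Inhba 1 of 3, while the synaptic scaffold gene Homer1 lost 4 and Lingo3 lost 5.

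Partners and regulators gave similar counts. In the Max network, 10 of 14 genes carried WT peaks and 3 a retained one (30.0%). Zbtb17, which encodes the Myc partner Miz-1, retained 1 of 2 and Mycbp2 1 of 6, while the Max dimer gene Mga lost 5. Of the bZIP genes whose products pair with AP-1 proteins or their relatives, 13 of 19 had a WT peak and 3 a retained one (23.1%). Jdp2, a repressor of AP-1, retained its single peak and Nfe2l3 1 of 2, while Bach1 and Bach2 lost 4 each, and Bach2 had 1 KO peak elsewhere. Among upstream factors and coregulators, 21 of 27 had a WT peak and 5 a retained one (23.8%). The acetyltransferase gene Ep300 retained 1 of 4 and Mef2d 1 of 1, while Nab2, a corepressor of EGR proteins, lost 4 and the kinase gene Camk4 lost 3. Mapk8, which encodes the Jun kinase JNK1, had 1 KO peak and no WT peak, and was named after its values were seen, as was Ruvbl1 below. Among turnover and transactivation cofactors, 14 of 23 had a WT peak and 4 a retained one (28.6%), with 1 of 3 retained in the ubiquitin ligase gene Huwe1 and in the deubiquitinase gene Usp36. Trrap and Rnf216, the latter a ubiquitin ligase gene for Arc, lost 2 each, and Ruvbl1 had 1 KO peak alone. By genes, retention in the 6 lists ran from 20.0% to 30.0%, beside 20.6% of all genes with a WT peak, and rested on few genes per list. By peaks, it ran from 10.7% to 14.8%, near the 12.9% of all WT peaks.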

How the data were processed

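The authors deposited 1 consensus peak list per genotype, and the labels assign each list to the libraries of that genotype. The submitters' processing notes name STAR and GRCm38. No source used here names the peak caller, its thresholds or how libraries were combined. Each deposited score lay between 0 and 0.00015 and was read as a p-value or q-value, used only to rank peaks within a list. The largest score was 0.00015 in the WT list and 4.4e-06 in the KO list, so the lists end at different scores. Entries were merged where exonic blocks overlapped on the same strand (15091 to 15009 in WT, 3733 to 3673 in KO). Gene spans came from the RefSeq table of GRCm38.p6, and the 136 genes of the 6 lists were all found there. WT peaks were divided into 5 classes by score and 5 by width. Overlap code was tested on simulated data. Python 3.11.15, pandas 2.3.3 and scipy 1.17.1 were used. The genes and lists were chosen with earlier results of these data known. The text names all members and, per list, at most 2 genes without retention (ranked by WT peaks) and at most 2 with retention (ranked by KO peaks), ties by peak length. Pathway genes outside this rule are marked in the text. Likeness of pattern names up to 3 genes per member. Sequences of peaks were not analysed here.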

Additional observations from a re-analysis of the deposited data

How the results depend on the processing

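Egr1, Jun and Jund each had a retained peak when genes were assigned by position or lists were shortened. The same held when strand was ignored, whole spans were used or a gap of 100 bases was allowed. Those settings can only add overlaps, so they could not remove a retained peak, and they added none in these genes. Entries left unmerged gave the same 19 WT and 4 KO peaks and the same retained peaks. When 50% of the WT peak, or 50% of both peaks, had to be shared, Jund alone was left: 1 retained WT peak, 1 KO peak over a WT peak and 1 gene. That is 5.26% of the WT peaks of these genes at both settings, beside 6.83% and 6.26% of all WT peaks. With the stronger 50% of each list, 8 WT peaks entered, and with the WT list shortened to 3673 peaks, 6 WT peaks in 5 genes over 3469 bases did, since fewer peaks enter. Retention was then 37.5% (3 of 8) and 50% (3 of 6), against 14.1% and 28.6% in all genes. These shares rest on the same 3 retained peaks and have no interval, so a difference from all genes cannot be read from them. The shares in all genes also include peaks of several exonic blocks. Peaks near the gene end numbered 2 within 500 bases (10.5%, 7.49% in all genes) and 19 within 5000 (all of them, 57.2% in all genes). Because the 10 genes are short, a window of 5000 bases takes in most or all of each span. The count at 5000 therefore follows from gene length and says nothing about peak position. Of 53 alternative values, 41 stayed within 1.5 times, some of them from settings that could not lower a count. No paired analysis was possible because neither list separates its libraries, and so no replicate could be left out. The unknown depth limits every missing peak, as does the smaller score at which the KO list ends.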
